A study of Homo sapiens with 45 samples.

Results

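The kallikrein-related peptidases are secreted serine proteases whose genes lie side by side on chromosome 19. They are made as inactive precursors, and in the outer layer of the skin KLK5, a trypsin-like enzyme, activates KLK7 and KLK14, after which the active enzymes cut the proteins that join neighbouring cells. The inhibitor LEKTI, encoded by SPINK5, holds this cascade back, and several members are known as secreted products of breast and ovarian epithelium. Described here are 9 of these genes (KLK5, KLK6, KLK7, KLK8, KLK9, KLK10, KLK11, KLK13 and KLK14) across 15 breast cancer cell lines. They were taken by symbol, through their Ensembl identifiers, and make up 9 of the 64485 genes in the count table.

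The study sequenced ribosome-depleted total RNA of 15 untreated breast cancer lines that carry no engineered change and are labelled wild type, with 3 libraries per line and 45 in all. Its title concerns complex I, glutamine and breast cancer cells with high MYC. Growth media were L-15 for MDA-MB-468, MDA-MB-453, MDA-MB-436, MDA-MB-231 and MDA-MB-157, EMEM for BT-20, DMEM for Hs578T, and RPMI 1640 for HCC1937, HCC38, HCC1187, HCC70, HCC1806, HCC1143, HCC1395 and BT-549. All media held fetal bovine serum and antibiotics, and insulin was added for BT-20, BT-549 and MDA-MB-436, the last of which also received glutathione. Whether the 3 libraries of a line stem from different cultures is not stated in the labels, and the p-values therefore describe the spread between these libraries, which may be technical.

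The libraries held 2312138 to 14653677 counts, with a median of 6263573, and the smallest was Hs578T replicate 2. That library also had counts in the most genes, 40272, which bears on low levels given for Hs578T. Runs 1 and 2 of the sequencer held 4 lines (MDA-MB-231, Hs578T, HCC38 and HCC1143), and runs 3, 4 and 5 held the other 11. Every line is labelled epithelial. All 8 epithelial markers examined (CDH1, EPCAM, ESRP1, CLDN4, CLDN7, KRT8, KRT18 and GRHL2) reached 10 CPM (counts scaled to a common library size) in 9 lines, but 0 of 8 did so in BT-549, 5 of 8 in MDA-MB-231 and 2 of 8 in HCC1395, Hs578T, MDA-MB-157 and MDA-MB-436. CDH1, which encodes the adhesion protein E-cadherin, stood at 0.421 to 1.52 CPM in those 6 lines, against 24.5 to 683 CPM in the other 9.

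In GENCODE 29 (GRCh38) the members read in one direction, on the minus strand, from KLK5 at chr19:50943303-50953093 to KLK14 at chr19:51077495-51084245. KLK6 (chr19:50958631-50969673) and KLK7 (chr19:50976482-50984099) come next to KLK5, followed by KLK8 (chr19:50996007-51002711), KLK9 (chr19:51003111-51009634), KLK10 (chr19:51012739-51020175), KLK11 (chr19:51022216-51028039) and KLK13 (chr19:51056206-51065114). The sequences just ahead of KLK5, KLK6 and KLK7 are shown because these 3 neighbours had the most reads of the cluster beside KLK10 and varied together across the lines. They come from RefSeq (GRCh38.p14, minus strand), hold the bases of the 250-base window ahead of each gene that lie outside annotated protein-coding exons, and show the GC box in capitals. Its letters GGGCGG read CCGCCC where they lie on the other strand, as in all 3 matches here.
KLK5: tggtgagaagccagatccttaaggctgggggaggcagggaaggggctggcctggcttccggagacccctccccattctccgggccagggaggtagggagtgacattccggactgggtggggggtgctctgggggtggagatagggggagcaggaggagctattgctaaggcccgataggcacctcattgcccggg
KLK6: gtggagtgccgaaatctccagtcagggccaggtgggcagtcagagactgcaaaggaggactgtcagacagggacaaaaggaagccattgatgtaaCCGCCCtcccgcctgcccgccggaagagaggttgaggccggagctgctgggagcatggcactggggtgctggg
KLK7: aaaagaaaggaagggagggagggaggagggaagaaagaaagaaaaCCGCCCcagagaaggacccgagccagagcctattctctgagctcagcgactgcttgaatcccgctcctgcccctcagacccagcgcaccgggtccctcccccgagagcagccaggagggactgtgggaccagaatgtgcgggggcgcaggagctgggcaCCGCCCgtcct
The KLK5 stretch (chr19:50953094-50953288, 195 bases, 65.1% G or C) holds no GC box, the KLK6 stretch (chr19:50969674-50969841, 168 bases, 62.5% G or C) holds 1, and the KLK7 stretch (chr19:50984100-50984314, 215 bases, 63.7% G or C) holds 2. RefSeq windows were found for 8 of the 9 members, KLK8 being the exception, with 15 windows in all, some of which overlap. GGGCGG occurred in 10 of these 15 windows, belonging to KLK6, KLK7, KLK9, KLK11, KLK13 and KLK14, and in 42.6% of 35116 RefSeq windows of the same length. On both strands, none of the 15 windows held the letters TATAAA of the TATA box (10.7% of all windows), TGANTCA of the AP-1 element (6.57%), CACGTG of the E-box that MYC binds (6.34%), AACNGGTT of the grainyhead-like element (1.49%) or AGAACA of a nuclear receptor half-site (12.4%).

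**Figure D1:**
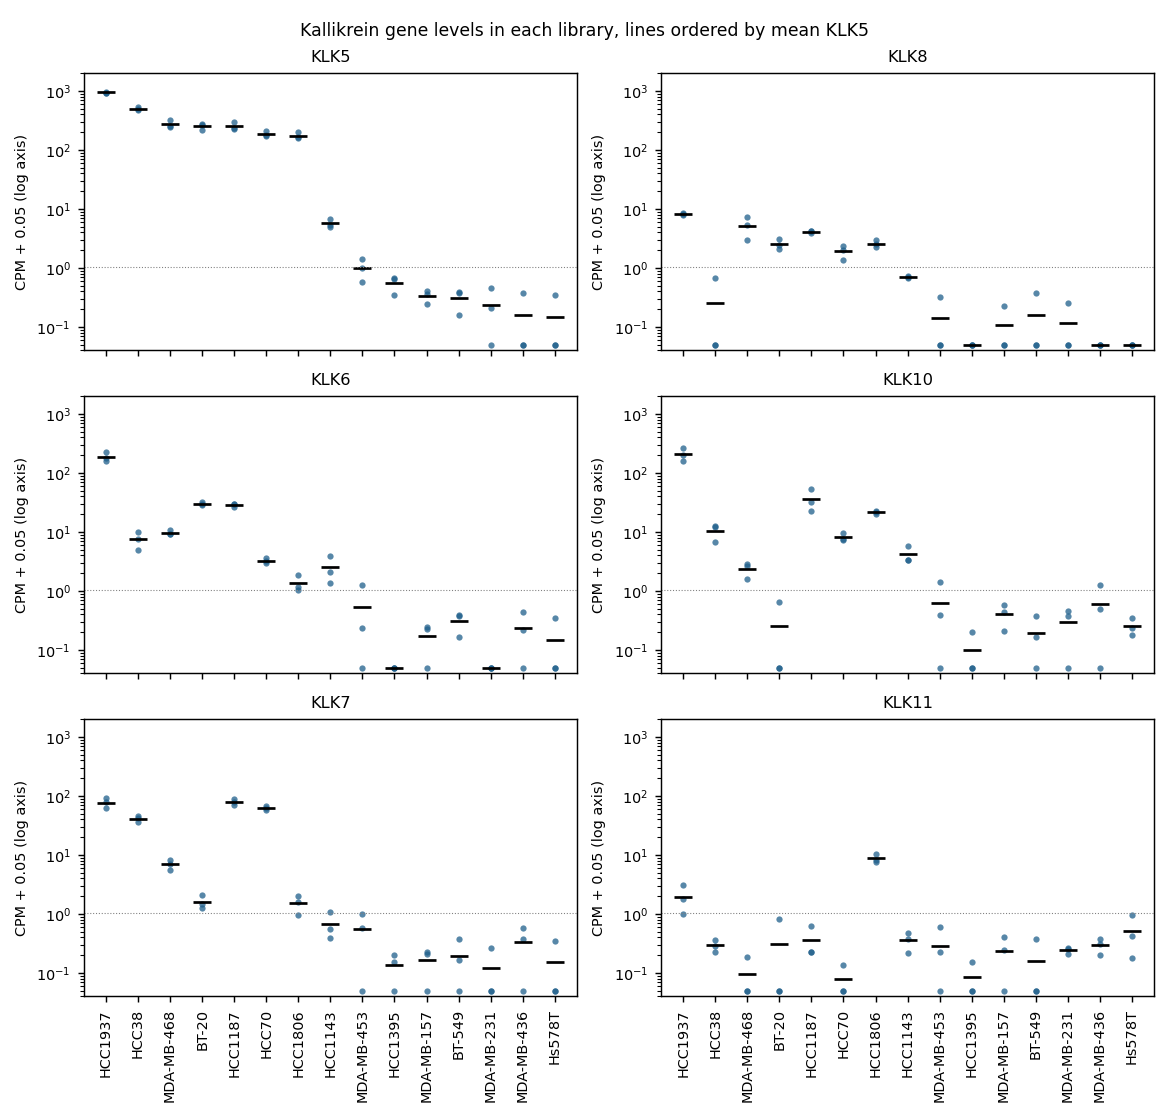
CPM of the 6 kallikrein genes that passed the filter, in each of the 45 libraries (points) with the mean of each line (bars), on a log axis after adding 0.05, with lines ordered by mean KLK5; the dotted line marks 1 CPM. KLK5 stands between 163 and 970 CPM in the libraries of 7 lines and at or below 6.84 CPM in those of the other 8, while KLK11 passes 1 CPM in HCC1806 and HCC1937.

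KLK5, the enzyme that starts the cascade in skin, was the most abundant member and split the lines into a high set of 7 and a low set of 8. Its 3 libraries had 929, 970 and 941 CPM in HCC1937, and 536, 485 and 491 CPM in HCC38. MDA-MB-468 had 247, 320 and 257 CPM and BT-20 had 266, 281 and 220 CPM. These libraries lie far apart from those of the low lines, where the highest value was 6.84 CPM, in HCC1143. HCC1187 had 234, 223 and 296 CPM, HCC70 had 174, 178 and 208 CPM, and HCC1806 had 167, 163 and 199 CPM, so the libraries of the last pair overlapped. HCC1143 averaged 5.74 ± 0.974 CPM and the other 7 low lines averaged 0.0999 to 0.946 CPM (SD, n = 3 libraries per line), with 1 count in all 3 Hs578T libraries together. Between neighbours in this order, HCC1937 exceeded HCC38 by 0.91 ± 0.149 on the log2 scale (SE, adjusted p = 1.4e-06) and HCC1806 exceeded HCC1143 by 4.93 ± 0.198 (adjusted p = 3.58e-25), by edgeR's quasi-likelihood F test. MDA-MB-468, BT-20 and HCC1187 were not told apart as neighbours, with log2 differences of 0.10 ± 0.149 and 0.03 ± 0.149 (adjusted p = 0.608 and 0.904 by the same edgeR test).

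KLK7, a chymotrypsin-like enzyme that KLK5 activates and that cuts corneodesmosin in skin, was high in fewer lines than KLK5. It had 70.4, 88.8 and 78.9 CPM in HCC1187, 61.1, 90.7 and 78.3 CPM in HCC1937, 56.5, 61.5 and 66.6 CPM in HCC70, and 45.7, 36.1 and 41.7 CPM in HCC38. The libraries of HCC1187 and HCC1937 overlapped, and edgeR did not separate these lines (log2 difference 0.05 ± 0.196, adjusted p = 0.866). MDA-MB-468 followed at 6.82 ± 1.35 CPM. BT-20 and HCC1806, both among the high lines of KLK5, had 1.55 ± 0.416 and 1.48 ± 0.530 CPM of KLK7, and the remaining 8 lines averaged 0.0698 to 0.626 CPM. The step from HCC38 to MDA-MB-468 measured 2.58 ± 0.235 on the log2 scale (edgeR, adjusted p = 4.67e-13).

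KLK6, a trypsin-like enzyme best known from brain and from ovarian cancer, had 156, 180 and 228 CPM in HCC1937. BT-20 had 32.0, 29.2 and 28.5 CPM and HCC1187 had 29.6, 26.2 and 30.0 CPM. All libraries of HCC1937 lay above those of every other line, and BT-20 and HCC1187 overlapped (log2 difference 0.06 ± 0.226, edgeR adjusted p = 0.843). MDA-MB-468 averaged 9.71 ± 0.908 CPM, HCC38 7.42 ± 2.41 CPM, HCC70 3.22 ± 0.339 CPM, HCC1143 2.44 ± 1.34 CPM and HCC1806 1.30 ± 0.456 CPM. KLK6 had 0 counts in all libraries of HCC1395 and MDA-MB-231, where 3 counts over the line would correspond to 0.122 and 0.189 CPM.

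KLK10, first described as a gene of normal breast epithelial cells that is silent in many breast cancer lines, had 158, 198 and 268 CPM in HCC1937. It had 22.9, 32.2 and 53.8 CPM in HCC1187, 21.6, 20.3 and 22.9 CPM in HCC1806, and 12.4, 12.03 and 6.61 CPM in HCC38. HCC1937 stood clear of all others (2.52 ± 0.267 above HCC1187 on the log2 scale, edgeR adjusted p = 3.51e-11), and HCC1187 exceeded HCC1806 by 0.75 ± 0.273 (adjusted p = 0.0178), with the lowest HCC1187 library barely above the highest HCC1806 library. HCC70 averaged 8.14 ± 1.22 CPM, HCC1143 4.13 ± 1.46 CPM and MDA-MB-468 2.33 ± 0.691 CPM. In BT-20, the KLK10 counts were 0, 4 and 0, beside KLK5 counts that summed to 4954 in the same line. The other 7 lines averaged 0.0507 to 0.573 CPM.

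KLK8, also called neuropsin, a trypsin-like enzyme of skin and hippocampus, stayed under 10 CPM in every library. HCC1937 had 8.64, 7.84 and 8.32 CPM, MDA-MB-468 had 7.17, 5.26 and 2.98 CPM, and HCC1187 had 4.13, 3.85 and 4.13 CPM. HCC1806, BT-20 and HCC70 averaged 2.54 ± 0.376, 2.48 ± 0.492 and 1.87 ± 0.492 CPM. These 6 lines formed an order in which no neighbours were separated by edgeR (adjusted p = 0.161 to 0.961 over 5 neighbouring pairs). HCC38, second in KLK5 with 10315 KLK5 counts, had 4 KLK8 counts in all.

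KLK11, another trypsin-like member, was found in a different set of lines. HCC1806 had 7.51, 8 and 10.5 CPM and HCC1937 had 0.926, 1.71 and 3.01 CPM. Every HCC1806 library lay above every other library, and edgeR separated HCC1806 from HCC1937 (log2 difference 2.14 ± 0.501, adjusted p = 3.53e-04). The other 13 lines held 1 to 6 counts each over 3 libraries, and HCC70, with 5161 KLK5 counts, held 1.

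KLK9, KLK13 and KLK14, the last a trypsin-like activator of KLK5 and of the receptor PAR2, did not pass the filter on low counts. KLK9 had 3 counts in 45 libraries, KLK13 had 54 and KLK14 had 42. No line averaged above 0.0672 CPM of KLK9, 0.359 CPM of KLK13 or 0.436 CPM of KLK14. With the filter removed, the adjusted p among lines by edgeR was 0.953 for KLK9, 0.716 for KLK13 and 0.345 for KLK14, and no single line was called for any of them. Differences between lines in these 3 genes were not detectable with these counts. KLK9 also shares 93.7% of its exon bases with a readthrough gene, described below, so it may also be undercounted.

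**Figure D2:**
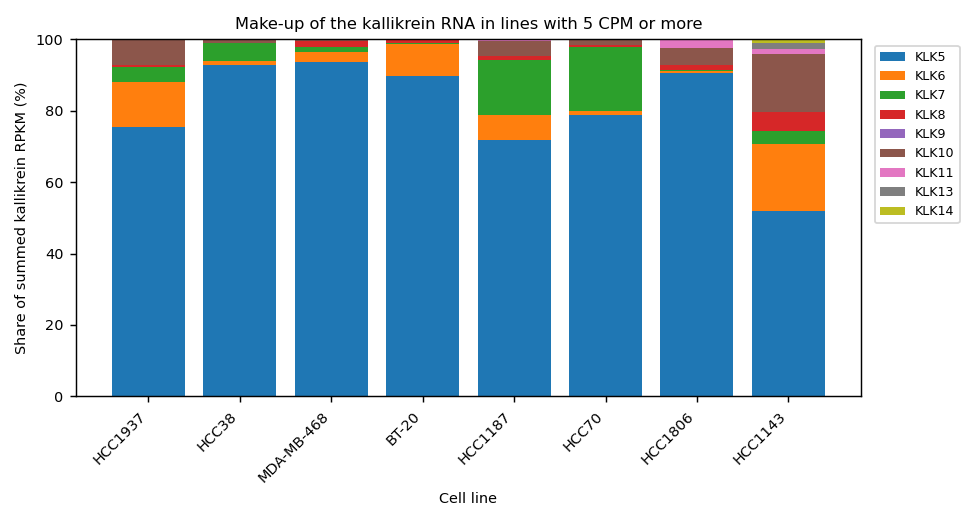
Share of each gene in the summed kallikrein RPKM (reads per kilobase of exon, scaled to CPM) of the 8 lines with at least 5 CPM over the 9 genes. KLK5 makes up 71.9% to 93.6% in 7 lines and 52.0% in HCC1143.

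Levels of different genes were compared per length, as RPKM over merged exons. In HCC1937, the line with the most kallikrein RNA, KLK5 reached 573 RPKM, KLK6 95.3, KLK10 53.9, KLK7 31.5, KLK8 4.43 and KLK11 0.604 RPKM. KLK5 held the largest share of the summed RPKM in all 7 of its high lines, from 71.9% in HCC1187 to 93.6% in MDA-MB-468. The second gene differed by line. It was KLK6 in HCC1937 (12.6%), BT-20 (8.80%) and MDA-MB-468 (2.77%), KLK7 in HCC70 (17.7%), HCC1187 (15.4%) and HCC38 (5.15%), and KLK10 in HCC1806 (4.76%). HCC1143, with a summed level of 14.2 CPM against 1430 CPM in HCC1937, had 52.0% KLK5, 18.6% KLK6 and 16.1% KLK10. The 9 genes together had 18 to 69 counts per line in MDA-MB-453, MDA-MB-436, BT-549, MDA-MB-157, HCC1395, MDA-MB-231 and Hs578T, too few for a make-up.

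Each of the 6 genes that passed the filter differed among the 15 lines (edgeR quasi-likelihood F test, adjusted p = 1.8e-44 for KLK5 to 2.27e-15 for KLK11). Since 98.2% of all 20587 genes tested also differed, this count sets the kallikreins apart from nothing. Over all pairs of lines, 425 of 630 gene and pair combinations were called, against 54.8% over all genes. By gene the number of pairs called was 87 for KLK5, 83 for KLK6, 79 for KLK7, 77 for KLK10, 70 for KLK8 and 29 for KLK11. Of 14 neighbouring pairs in each gene's order of levels, 5 were called for KLK5 and KLK10, 3 for KLK6 and KLK7, 2 for KLK11 and 1 for KLK8.

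Each line was then compared with the mean of the fitted log2 levels of the other 14, and a gene was called at an adjusted p of 0.05 and a log2 fold change of at least 1. Lines with almost no reads of a gene pull this mean down, so a line can be called higher while its CPM lies under the plain average of the others, as for KLK6 in HCC1143 (2.44 CPM, against 19.2 CPM averaged over the other lines). Over 90 gene and line combinations there were 33 higher and 25 lower calls, and within each set of sequencing runs 34 and 26. The higher calls numbered 29 to 34 under every alternative. The lower calls rest on lines with a handful of reads and are given as counts only: leaving out 1 replicate of every line gave 3 to 16, leaving out Hs578T replicate 2 gave 11, and DESeq2 gave 34.

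**Figure D3:**
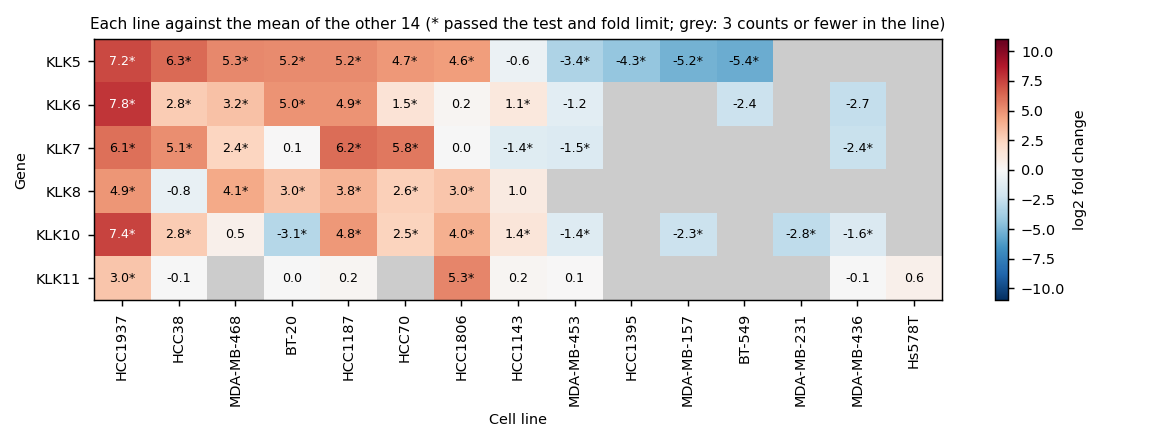
Log2 fold change of each line against the mean of the other 14, by edgeR, for the 6 genes that passed the filter; stars mark calls, and grey cells are lines with 3 counts or fewer, whose fitted values are not shown. HCC1937 is starred for all 6 genes, from 3.04 for KLK11 to 7.82 for KLK6. KLK6 and KLK8 had 0 lower calls by edgeR in any line, also where DESeq2 called them lower.

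HCC1937 was the one line with all 6 genes higher, where 14.5% of all genes tested were higher and 10.8% lower. Its log2 fold changes were 7.82 ± 0.141 for KLK6, 7.45 ± 0.158 for KLK10 and 7.24 ± 0.091 for KLK5. They were 6.10 ± 0.145 for KLK7, 4.86 ± 0.303 for KLK8 and 3.04 ± 0.407 for KLK11 (edgeR adjusted p between 1.08e-45 and 1.45e-08 over the 6 genes). The ± values of these line contrasts, here and below, are the absolute log2 fold change divided by the square root of F. Lines with almost no counts of a gene enter them, so they are no reliable measure of precision. HCC1187 had 5 higher genes, all but KLK11, and 0 lower ones (16.4% and 12.5% of all genes), led by KLK7 at 6.15 ± 0.149. HCC70 had 5 higher and 1 lower (17.7% and 22.9%), with KLK7 at 5.76 ± 0.149 and KLK5 at 4.73 ± 0.110, and its lower gene was KLK11, with 1 count. Its KLK6 call (1.53) was lost within its set of sequencing runs (0.948). The KLK11 calls in HCC70 and HCC1395 were both lost when replicate 1, 2 or 3 of every line was left out, and without the filter.

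HCC38 had 4 higher genes and 0 lower (13.8% and 10.2% of all genes): KLK5 at 6.27 ± 0.0972, KLK7 at 5.14 ± 0.163, KLK10 at 2.83 ± 0.269 and KLK6 at 2.79 ± 0.269. MDA-MB-468 also had 4 and 0 (14.7% and 9.19%), here KLK5 at 5.33 ± 0.105, KLK8 at 4.13 ± 0.343, KLK6 at 3.24 ± 0.254 and KLK7 at 2.37 ± 0.241. KLK10 was at 0.53 in MDA-MB-468 and passed both limits when HCC1937 was left out. HCC1806 had 4 and 0 (15.9% and 13.7%), with KLK11 at 5.33 ± 0.317, the largest value of that gene, KLK5 at 4.64 ± 0.111, KLK10 at 3.95 ± 0.229 and KLK8 at 3.05 ± 0.385. BT-20 had 3 higher genes and 1 lower (14.2% and 11.3%): KLK5 at 5.21 ± 0.106, KLK6 at 4.97 ± 0.195 and KLK8 at 3.01 ± 0.393 were higher and KLK10 was lower.

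HCC1143 lay between these lines and the low ones, with KLK10 (1.37 ± 0.352) and KLK6 (1.12 ± 0.338) higher and KLK7 lower, where 18.4% of all genes were higher and 11.3% lower. KLK6 was no longer called there without replicate 1 (0.495). With sequencing run as a block, KLK7 in HCC1143 lost its call (-1.13, against -1.35 without the block) and KLK8 gained one (1.43, against 0.99). KLK7 also lost its call without each replicate in turn (-1.74 to -0.997), without Hs578T replicate 2 (-1.20) and without HCC1937 (-0.95). Against the 3 other lines of its set of runs, KLK7 was at -0.059 and not called, and KLK8 was at 3.29 and called. KLK5 in HCC1143 was at -0.64 and not called against all lines, but at 1.51 and called against the 3 lines of its own set of runs.

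No gene was higher in any of the remaining 7 lines. Lower calls numbered 4 in HCC1395 (14.4% of all genes higher and 17.7% lower). They numbered 3 each in MDA-MB-453 (17.7% and 14.6%), MDA-MB-436 (16.4% and 10.9%), MDA-MB-231 (15% and 10.5%), MDA-MB-157 (20% and 12.4%), Hs578T (20.9% and 9.56%) and BT-549 (13.3% and 10.7%). KLK6 and KLK8 had 0 lower calls by edgeR in any line, with an SE as large as 13000 (KLK6 in HCC1395). DESeq2 called KLK6 lower in each of these 7 lines and KLK8 in HCC1395, Hs578T and MDA-MB-436. A missing edgeR call of these 2 genes is therefore no sign that their level was not low. In 6 of these 7 lines 3 or more of the 8 epithelial markers were under 10 CPM, as given above. The exception was MDA-MB-453, which had 8 of 8 epithelial markers at 10 CPM or more and a summed kallikrein level of 3.42 CPM. The summed epithelial markers stood at 11.2 to 808 CPM in the 6 lines and at 2297 to 7915 CPM in the other 9, and none of the 8 was at 0 in any line. The 8 mesenchymal markers summed to 2055 to 9402 CPM in the 6 lines and to 39.2 to 1393 CPM in the other 9. What these markers have to do with the kallikrein levels was not tested. In bulk RNA, fewer cells that express a gene and less RNA per cell cannot be told apart.

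Across the 15 line sums, KLK5, KLK6, KLK7, KLK8 and KLK10 varied together. The Pearson correlation of log2 CPM was 0.902 between KLK5 and KLK6, 0.889 between KLK5 and KLK8, 0.884 between KLK5 and KLK7 and 0.783 between KLK5 and KLK10. KLK11 followed none of them closely, with r from 0.156 with KLK7 to 0.567 with KLK10. The median over the 15 gene pairs was 0.764, or 0.746 as Spearman's rank correlation, 0.708 without HCC1937 and 0.781 over the 11 lines of runs 3 to 5. Each point shares its library and depth between the genes. Over the 7 lines with at least 10 CPM of KLK5, r with KLK5 was 0.729 for KLK6, 0.504 for KLK10, 0.481 for KLK7 and 0.0282 for KLK8. Over the other 8 lines, most of them with few reads of these genes, it was 0.789 for KLK6, 0.726 for KLK10, 0.72 for KLK7 and 0.873 for KLK8. The split was made on KLK5 itself, which narrows its range within each set. Values within a set are therefore not comparable with r over all 15 lines.

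**Figure D4:**
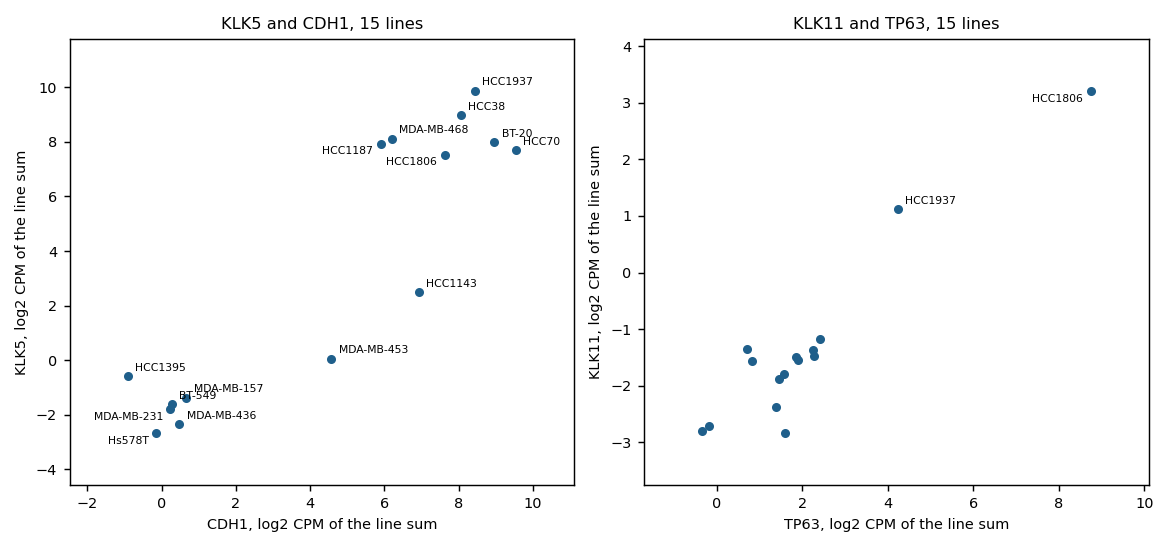
Log2 CPM of line sums of KLK5 against CDH1 (left, r = 0.913) and of KLK11 against TP63 (right, r = 0.939; lines with KLK11 log2 CPM under 0 are not named), 1 point per line. KLK5 falls into a high set of 7 lines and a low set of 8, with HCC1143 the highest of the low set at 2.49 log2 CPM, and KLK11 is highest in HCC1806 (3.21) and HCC1937 (1.12).

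A family score averaged the log2 CPM of the 6 passing genes after each was centred on 0 and divided by its SD among lines. It ran from 1.69 in HCC1937 to -1.03 in HCC1395. Among 15120 protein-coding genes, whose median r with the score was 0.0215, the 5 most alike outside the cluster were DAPP1 (0.905), a phosphoinositide-binding adaptor, PLEKHG6 (0.89), OVOL1 (0.886), a transcription factor of epidermal differentiation, HS6ST1 (0.877), which sulfates heparan chains, and MPZL2 (0.868), an epithelial adhesion protein. For single members the most alike genes were CDH1 for KLK5 (0.913), PADI2 for KLK6 (0.899), SYT7 for KLK7 (0.9), HS6ST1 for KLK8 (0.918), VANGL2 for KLK10 (0.876) and TP63 for KLK11 (0.939). TP63, a transcription factor of basal epithelial cells, reached 413 CPM in HCC1806, the top line of KLK11. Between TP63 and KLK11, r was 0.636 over the 13 lines left without HCC1806 and HCC1937, and 0.828 over the 8 lines with under 10 CPM of KLK5. In all of these lines KLK11 had only 1 to 6 counts, so these 2 values rest on levels at the floor. They do not show whether the likeness holds outside HCC1806 and HCC1937. Over the 7 lines with at least 10 CPM of KLK5, r between CDH1 and KLK5 was 0.124, and over the other 8 lines it was 0.864. Apart from HCC1143, with 96 KLK5 counts, those 8 lines held 1 to 18 each, so the second value rests largely on levels near the floor.

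Of 7 genes listed as activators of kallikrein precursors or of proteases upstream of them, 6 passed the filter and their median r with the score was 0.647. ST14, which encodes matriptase, had r = 0.867 and ran from 364 CPM in HCC70 to 0.161 CPM in Hs578T. PRSS8, encoding prostasin, had r = 0.768 and reached 54.0 CPM in HCC70. PLG (plasminogen) and PLAU (urokinase) went the other way, at -0.701 and -0.339, although PLG stayed at or below 1.59 CPM. In HCC1937, 5 of the 6 were higher and 1 lower than in the other lines (14.5% and 10.8% of all genes), with a median log2 fold change of 1.76 against 0.03 over all genes, and in HCC1395, which had the lowest score, 1 was higher and 4 lower (14.4% and 17.7% of all genes).

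Of 13 inhibitors, 9 passed, with a median r of 0.148. SLPI, a secreted inhibitor of serine proteases, had r = 0.754 and reached 703 CPM in HCC70, and SPINT1, which inhibits matriptase, had r = 0.74 and reached 217 CPM in MDA-MB-453. SPINK5, whose product inhibits KLK5, KLK7 and KLK14, had r = -0.543, with its highest level in Hs578T (9.60 CPM) and its lowest in BT-20 (1.64 CPM). SPINK9, encoding another inhibitor of KLK5, had r = -0.331 and did not exceed 1.66 CPM. In HCC1937, 3 of 9 were higher and 1 lower (14.5% and 10.8% of all genes), with a median log2 fold change of 0.34. In HCC1395, 1 was higher and 6 lower (14.4% and 17.7%), with a median of -2.01 against -0.07 over all genes.

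Substrates and receptors showed no common direction: 8 of 10 passed, 5 of the 8 had r above 0 and the median was 0.21. CDH1 (0.868) and SCNN1A (0.814), a subunit of the epithelial sodium channel, were the most alike. FLG (-0.465), encoding filaggrin, and F2R (-0.418), encoding the thrombin receptor PAR1, were the least. Of 16 late keratinocyte genes, 7 passed the filter, with a median r of 0.532. KRT16 (0.797), an inducible keratin that reached 3400 CPM in HCC70, and IVL (0.787), encoding involucrin and at up to 101 CPM in HCC70, led the list. SPRR1B (0.447) and SBSN (-0.374) stayed at or below 2.15 and 3.04 CPM.

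Of 18 transcription factors and receptors listed as regulators, all passed and 16 had r above 0, with a median of 0.602. OVOL1 (0.886) and GRHL2 (0.827), which maintains epithelial identity, were highest, and PGR (-0.419), the progesterone receptor, was lowest. All 8 epithelial markers had r above 0 (median 0.767), among them CDH1 (0.868), ESRP1 (0.859), CLDN4 (0.714) and KRT18 (0.634). All 8 mesenchymal markers had r below 0 (median -0.59), among them ZEB1 (-0.861), ZEB2 (-0.836), SPARC (-0.324) and SNAI2 (-0.155). In HCC1937, where 14.5% of all genes were higher and 10.8% lower, 10 of 18 regulators were higher and 1 lower, and all 8 epithelial markers were higher. In HCC1395, where 14.4% of all genes were higher and 17.7% lower, 13 regulators and 7 epithelial markers were lower and 0 of either list was higher. HCC1937 and HCC1395 are the ends of the score, and not all other lines followed its order. MDA-MB-453 (score -0.46) had 12 regulators higher and 3 lower, with 7 epithelial markers higher and 0 lower (17.7% and 14.6% of all genes). HCC38 (score 0.532) had 2 regulators higher and 3 lower, with 7 epithelial markers higher and 0 lower (13.8% and 10.2%). GRHL2 stands in both lists.

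**Figure D5:**
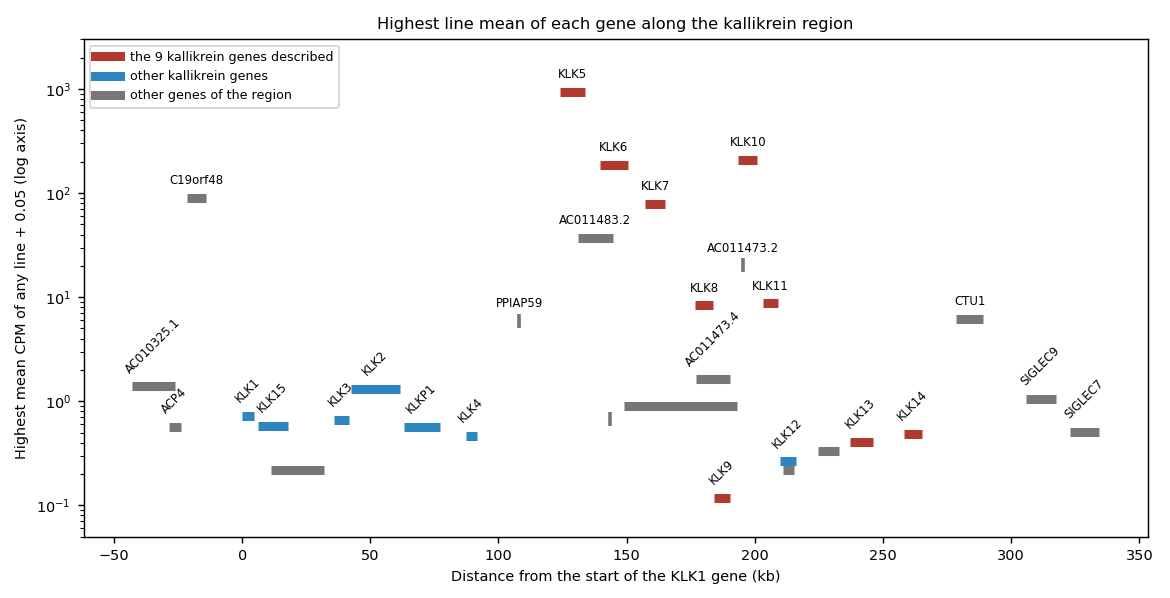
Highest mean CPM of any line (log axis, after adding 0.05) for each gene along the kallikrein region, by distance in kilobases from the start of KLK1; short genes are drawn as ticks. KLK5 reaches 947 CPM and KLK10 208 CPM, while KLK1, KLK2, KLK3, KLK4 and KLK15 on one side stay at or below 1.26 CPM and KLK12, KLK13 and KLK14 on the other at or below 0.436 CPM.

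Most reads of the kallikrein region came from part of it. Of the 7 other kallikrein genes, KLK2 alone passed the filter, with 169 counts and at most 1.26 CPM, in HCC1937. KLK1, KLK3 (prostate-specific antigen), KLK4, KLK12, KLK15 and the pseudogene KLKP1 had 23 to 89 counts in 45 libraries and did not pass. Of the protein-coding genes flanking the cluster, C19orf48 had r = 0.645 with the family score, AC010325.1 had 0.263 and CTU1 had 0.26, and ACP4, SIGLEC9 and SIGLEC7 did not pass. C19orf48 had 95.6, 89.8 and 84.6 CPM in HCC1937, its highest line, and 5.40, 5.33 and 6.05 CPM in MDA-MB-157, its lowest. PPIAP59, a processed pseudogene named here after its values were seen, had 33, 50 and 30 counts in MDA-MB-468 and 0 to 5 counts in every library of the other lines.

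Overlapping genes touch several of these values. AC011483.2, an antisense gene, covers 12.2% of the KLK5 exon bases and 20.3% of those of KLK6 on the other strand, and its r with the family score was 0.966. It had 67, 305 and 641 counts in HCC1937, beside KLK5 counts of 6019, 6809 and 10637, so its libraries spread more widely than those of KLK5. AC011473.2 lies opposite 6.23% of the KLK10 exon bases, with r = 0.921. The strand setting of the counting is not given in the sources used here, so reads of a gene and of its antisense partner cannot be told apart. The readthrough gene AC011473.4 shares 40.1% of the KLK8 and 93.7% of the KLK9 exon bases on the same strand and had 80 counts in all, so KLK8 and KLK9 may be undercounted. Between the annotated transcripts of any 2 members the longest identical stretch was 25 bases. Between a member and another kallikrein gene of the locus it was 36 bases, for KLK14 and KLK4.

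The media are carried by different lines, so medium and line cannot be told apart. With line sums as units, the 5 lines in L-15 were set against the 8 in RPMI 1640, and 5 members could be tested. KLK10 ranged from 0.243 to 2.33 CPM in L-15 lines (median 0.545) and from 0.0507 to 208 CPM in RPMI 1640 lines (median 9.24). KLK7 ranged from 0.0698 to 6.82 CPM in L-15 lines (median 0.285) and from 0.0850 to 79.3 CPM in RPMI 1640 lines (median 21.3). In both genes the ranges of the media overlapped. None of the 5 genes was called by edgeR, which called 0% of all 20505 genes in either direction, although 1195 genes were higher and 1149 lower at an unadjusted p of 0.05. The log2 difference was -5.48 ± 1.66 for KLK10 (edgeR adjusted p = 0.3), -4.38 ± 1.76 for KLK7 (adjusted p = 0.388), -3.81 ± 1.94 for KLK6, -2.22 ± 1.94 for KLK5 and -1.05 ± 1.38 for KLK8, with a median over all genes of -0.03. DESeq2 called KLK10 lower in L-15 (-5.52) and none of the other 4. Without MDA-MB-468, the one L-15 line with over 1 CPM of KLK5, the KLK5 difference was -9.44 and still not called. Over the 11 lines of runs 3 to 5 the differences were -5.62 for KLK10 and -4.26 for KLK7, also not called.

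The title of the series concerns cells with high MYC, a transcription factor of growth. MYC itself ran from 200 CPM in MDA-MB-231, where KLK6 had 0 counts, to 17.8 CPM in MDA-MB-453, and its r with the family score was 0.0749 (Spearman -0.125, 15 lines). Slopes on log2 CPM of MYC were 2.27 ± 1.58 for KLK10, 2.20 ± 1.81 for KLK6, 1.18 ± 2.46 for KLK5, 0.60 ± 1.10 for KLK11, 0.42 ± 1.48 for KLK8 and 0.26 ± 1.78 for KLK7. None of the 6 was called by edgeR (adjusted p = 0.948 to 1) or by DESeq2, and 0.00376% of 26615 genes rose and 0.139% fell with MYC by edgeR. At an unadjusted p of 0.05, 665 genes rose and 967 fell, and none of the 6 was among them. The slopes of KLK5, KLK7 and KLK8 changed sign without MDA-MB-453 (-1.10, -1.13 and -1.07) and without HCC1937 (-0.18, -0.38 and -0.44).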

How the data were processed

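Total RNA was extracted with RNeasy columns, depleted of ribosomal RNA with Ribo-Zero Gold and made into ScriptSeq v2 libraries, per the labels' protocols. The deposited values are whole-number read counts per Ensembl gene, which the authors left without normalization. Per the submitters' processing notes, the tools included bcl2fastq 2.20.0.422, FastQC, MultiQC, Trimmomatic, STAR and featureCounts with build GRCh38.p12; the annotation release, strand setting and handling of multi-mapping reads were not given in the sources used here. Of the identifiers, 90.4% matched GENCODE 29, which gave symbols, positions and exon lengths.

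All 45 libraries entered one edgeR 4.0.16 quasi-likelihood fit (R 4.3.3) with TMM scaling, after filterByExpr removed genes of low counts. A gene needed 15 counts in total, and a level equal to 10 counts in about as many libraries as a line has. It could thus pass through 1 line. KLK11 had 48, 49 and 92 counts in HCC1806, the line where it was highest. CPM used the scaled library sizes. P-values were adjusted by the Benjamini-Hochberg method over all genes tested, with a threshold of 0.05, and calls of a line against the others, or of a medium, also needed a log2 fold change of 1. Media and the slope on MYC were tested on the summed counts of each line. Each SE of a log2 value is its absolute value divided by the square root of F, so it follows from the test. In contrasts of a line with the others it ran from 0.00869 (KLK11 in BT-20) to 13000 (KLK6 in HCC1395). Log2 CPM of line sums used a prior count of 2, while the fitted fold changes used edgeR's default. The tests were checked on simulated data of well-counted genes, which does not cover genes with few or 0 counts in many lines, such as the kallikreins. DESeq2 1.42.0, its size factors, no filter, a replicate block and left-out replicates, lines and run sets served as alternatives; leaving out Hs578T replicate 2 or HCC1937, and the 11 lines of runs 3 to 5 for the correlations, were chosen after seeing the data.

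In 11 lines the labels make the sequencing run the replicate number. Libraries of one run deviated together only weakly (median r 0.0562, against -0.0297 for other runs, with 55 of 165 pairs above 0.1), but since the labels name the shared run the block was fitted. Intervals and floors of 3 counts cover counting error only. The members and lists were chosen with earlier results of these data known. All members were named, and of each list the 2 genes most and the 2 least correlated with the family score. One gene that this rule names is not reported here.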

Additional observations from a re-analysis of the deposited data

Results flagged for a closer look

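Among the 5 lines grown in L-15, MDA-MB-468 stood apart from the others in 2 genes. Its KLK5 level was 8.11 log2 CPM, with the next line at 0.054, and its KLK8 level was 2.38 log2 CPM, with the next line at -2.29. The gap took up 0.77 and 0.819 of the range over the 5 lines, against a limit of 0.71. In all, 12 groups of lines were examined in this way, and for normally spread values chance flags about 1 in 20. The other L-15 lines held 2 to 18 KLK5 counts and 0 to 2 KLK8 counts each, so that rate may not hold here. Both flags concern the same line, in genes that varied together.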

How the results depend on the processing

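The 6 genes differed among lines under every alternative run, and higher calls numbered 29 to 34. Lower calls (25) moved to 3 to 16 when a replicate of every line was left out and to 11 without Hs578T replicate 2; the cause was not tested. With the replicate block there were 34 higher and 24 lower calls, 419 called pairs and 6 genes differing among lines, and apart from KLK7 and KLK8 in HCC1143 it changed no call of a line. KLK5 in HCC1143 reversed to 1.51 within its set of runs. In the same setting the calls of KLK7 in HCC1143 (-0.059) and KLK6 in HCC70 (0.948) were lost and KLK8 in HCC1143 (3.29) was called. The median r between members moved to 0.708 without HCC1937. DESeq2 called 1 gene lower in L-15 and edgeR called 0. Slopes on MYC reversed without MDA-MB-453 for KLK5 (-1.10), KLK7 (-1.13) and KLK8 (-1.07), and without HCC1937 for the same genes (-0.183, -0.381 and -0.438). For 19 of the 90 gene and line combinations no setting gave a call. Counts were too few to compare lines in KLK13 and KLK14, and in the other genes among lines with a handful of counts. Whether this reflects depth or little RNA was not tested. For KLK9, little RNA, depth and the exon bases shared with AC011473.4 cannot be told apart.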

Other observations

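The correlation between KLK5 and KLK8 depended on which lines were included. Over the 11 lines of runs 3 to 5 their r was 0.984, against 0.889 over all 15 lines, and it was 0.981 over the 13 lines left without HCC1937 and HCC38. Both smaller sets leave out HCC38 and mix high and low lines of KLK5. Over the 7 lines with at least 10 CPM of KLK5, HCC38 among them, r was 0.0282, and over the other 8 lines it was 0.873. The split was made on KLK5 itself, which narrows its range within each set. Of the other 8 lines, HCC1143 had 11 KLK8 counts and the rest 0 to 2 each. These 2 values therefore do not show that the likeness differs between high and low lines. HCC38 had 10315 counts of KLK5 and 4 of KLK8. HCC1143 carried epithelial and mesenchymal markers together, with 126 CPM of CDH1 and 1334 CPM of VIM, the intermediate filament vimentin, beside a summed kallikrein level of 14.2 CPM.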
